A study of Caenorhabditis elegans with 30 samples.

Results

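The irld double mutant, which carries irld-39(duk1) and irld-52(duk17) in the strain LRB444, was compared with itself at 72 h and 48 h of starvation arrest at the first larval stage (L1). The members are the 6 libraries labelled with that genotype and with 48 or 72 h of arrest, 3 biological replicates at each time, out of 30 libraries in the series. The other libraries are the mutant at 6, 12 and 24 h and the wild-type strain N2 at all 5 times. Both strains were bleached to obtain embryos and the larvae were held without food in S-basal, a salt buffer, at 1 per µl and 20 °C on a shaker, so that 48 and 72 h of arrest were 60 and 84 h after bleaching. Between 8862886 and 12698097 reads were counted to worm genes in the 6 libraries. The mutant is 1 strain that holds both alleles, and the labels do not say what either allele removes. Whole larvae were used, and in such bulk samples fewer cells of a type and less RNA per cell cannot be told apart.

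Larvae of Caenorhabditis elegans that hatch without food stop before postembryonic development begins and can wait in that state for weeks. The arrest depends on insulin-like signalling: when the receptor DAF-2 is little active, the FOXO transcription factor DAF-16 enters nuclei and holds back growth, while stress and fat metabolism genes respond to it. The irld genes encode proteins with a receptor L domain, the module with which the insulin receptor binds its ligand, and the larva lives on stores laid down in the egg. The cuticle around the larva is built of collagens that are made in waves around hatching and each molt.

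The mutated genes were read first, between the times of the same strain, which does not check the genotype labels. Their levels in N2 are not given here. irld-39 (WBGene00010415, chromosome IV 16233148 to 16236555, WBcel235) had 6, 2 and 0 counts at 48 h and 2, 4 and 2 at 72 h. That is 8 counts at each time, too few for a test. The other gene, irld-52 (WBGene00012043, chromosome V 15779679 to 15781247) had 2, 4 and 3 counts at 48 h and 4, 1 and 6 at 72 h. Its log2 difference of 0.54 ± 1.03 (SE) spans both directions, and these depths cannot show a difference of either gene.

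The differences between 48 and 72 h with the smallest p were lower levels of a set of cuticle collagens and modestly higher levels of genes such as epg-6, fat-2 and mfb-1, and these differences had the same sign in N2. None of the 15508 genes tested passed edgeR's quasi-likelihood test at an adjusted p under 0.05 (0% called), and the lowest adjusted p was 0.192. At an unadjusted p under 0.05 there were 343 genes with a higher (2.21%) and 314 with a lower (2.02%) level at 72 h, 4.24% of those tested. DESeq2 called 4 genes (0.0258%), of which col-42, col-98 and col-166 were lower (0.0193%) and epg-6 was higher (0.00645%), and limma-voom called 0. In 11229 genes with a mean level of at least 2 CPM, which are counts scaled to a common library size, the median absolute log2 difference was 0.149. For 8894 of them (79.2%) the 95% interval of the difference lay within 2-fold in either direction, and 92 genes (0.819%) had a log2 difference of at least 1 in size. Against this, the step from 24 to 48 h in the same strain gave 99 calls (0.638%), 63 higher and 36 lower. That count moved with single libraries. It was 0 without 48 h replicate 1, 21 without 48 h replicate 2 and 24 without 48 h replicate 3, and 26, 0 and 4 without all libraries of replicates 1, 2 and 3. It shares the 48 h libraries with the later step, so both steps are given side by side only.

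The replicate number separated the 6 libraries more than time did. Over the 11229 genes 63.9% of the variance lay between replicate numbers and 14% between the times. Some variance falls to each without any effect, and more to the replicate numbers, which outnumber the times, so these shares are a description. A principal component analysis put 52% of the variance on its first axis, which set both replicate 3 libraries, at 41.8 and 29.4, apart from the others, at -20.8 to -12.8. When the replicate number was entered as a block with the 6 libraries alone, 33 of 12514 genes passed (0.264%), 20 higher and 13 lower at 72 h. With the 12 libraries of both strains at 48 and 72 h and a block within strain, 75 of 13388 passed (0.56%), 53 higher and 22 lower, and 30 of the 33 were among them. Both blocked fits were added after the data had been seen. The planned block over all 30 libraries called 0 genes, and a block within strain without the 6 and 12 h libraries, also added later, called 4 (col-166, col-80, epg-6 and fat-6), so the calls depend on which libraries enter the blocked fit. Genes that passed the 6-library blocked fit are said below to have passed with pairing.

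All levels are relative to the worm RNA of the library. Scaled to the ERCC spike-in, synthetic RNA that took 0.603% to 3.88% of counts and varied more between replicate numbers than between times, the median of all genes was 0.299, and 16 of the 34 lists with at least 5 tested members that are described below had a median of the other sign. Cuticle collagens then stood at -0.0028 and cytosolic chaperones at 0.609, respectively below and above that median.

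**Figure D1:**
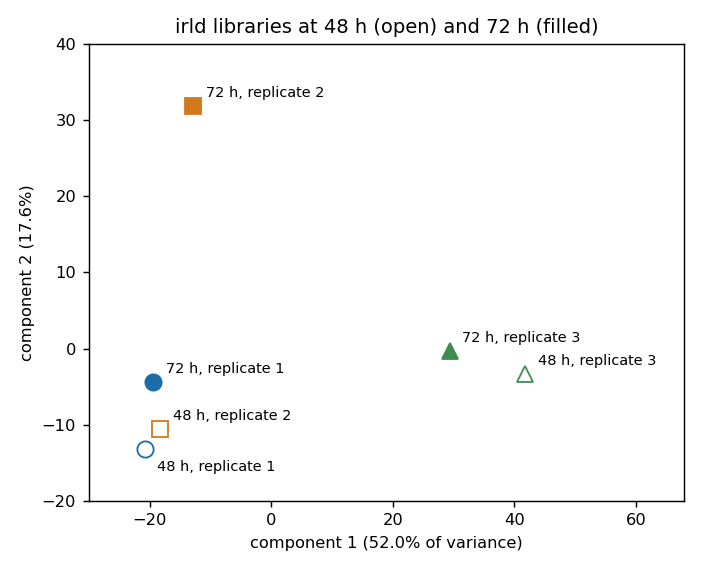
First 2 principal components of log2 CPM in the 6 irld libraries, with 48 h as open and 72 h as filled symbols and 1 colour and shape for each replicate number. The replicate 3 libraries lie at 41.8 and 29.4 on the first axis, and the 72 h replicate 2 library lies apart on the second, at 31.8.

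Cuticle collagens, the structural proteins of the body wall's outer layer, had the lowest median log2 difference of the gene lists described. col-42 (WBGene00013489, chromosome V 18638484 to 18639591) had 718, 974 and 768 CPM at 48 h and 358, 150.1 and 335 CPM at 72 h. Every 72 h library lay under every 48 h library, and replicate 2 was the highest at 48 h and the lowest at 72 h. The mean was 820.0 ± 136 CPM (SD, n = 3) at 48 h and 281 ± 114 (n = 3) at 72 h, 2.92-fold lower in the fit, with a log2 difference of -1.55 ± 0.28 and an edgeR adjusted p of 0.192. It did not pass with pairing (edgeR adjusted p = 0.601). At 24 h it had stood at 2312 ± 572 CPM (n = 3).

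col-166 (WBGene00000739, chromosome X 6280016 to 6280921) had 21.1, 26.9 and 20.2 CPM at 48 h and 10.8, 7.43 and 7.17 CPM at 72 h. The groups did not overlap, and its level had already come down from 697 ± 205 CPM at 6 h to 59.8 ± 13.1 at 24 h (n = 3 each). It was 2.69-fold lower at 72 h (log2 difference -1.43 ± 0.28, edgeR adjusted p = 0.234) and passed with pairing at an edgeR adjusted p of 0.00414. col-98 (WBGene00000673, chromosome III 13019008 to 13020226) had 133, 204 and 159.8 CPM at 48 h and 83.3, 50.5 and 85.1 CPM at 72 h, again with no overlap. Its log2 difference was -1.18 ± 0.25, and it did not pass with pairing (edgeR adjusted p = 0.514). col-103, also among the 12 genes with the smallest p for a lower level, differed by -1.04 ± 0.29 with its lowest value, 65.5 CPM, in 72 h replicate 2.

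col-80 and col-160 passed with pairing. col-80 had 49.3, 67.5 and 53.5 CPM at 48 h and 24.6, 21.9 and 21.6 CPM at 72 h, a log2 difference of -1.32 ± 0.39. col-160 had 164, 248 and 119 CPM at 48 h and 68.5, 71.3 and 64.2 CPM at 72 h, a log2 difference of -1.38 ± 0.40. Neither gene overlapped between the times, and another gene is annotated on the same strand over part of col-160. Near-identical collagens can share reads, so values of single members carry that uncertainty.

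Of 175 collagen genes in the files 126 were tested, and their median log2 difference was -0.374, beside 0.0177 over all tested genes. None was called, 15 had an unadjusted p under 0.05, all lower (2.02% of all genes were lower at that level), and 82 differences were negative and 44 positive. Summed over the family, the level was 3914, 5447 and 3962 CPM at 48 h and 2858, 1744 and 2801 CPM at 72 h. This and the other list sums are scaled by library size alone, unlike the levels of single genes. The 3 sums at 72 h were all below those at 48 h, and the extremes were both replicate 2. Without replicate 2 at both times the family's median was -0.0933, and without replicate 1 it was -0.593. It was -0.228, -0.197 and -0.217 without 48 h replicate 2, 48 h replicate 3 and 72 h replicate 2. In the step from 24 to 48 h the median was -0.72 with 7 members called lower, col-42, col-98, col-166 and col-160 among them. Of all tested genes 0.232% were called lower in that step, and its calls fell to 0 without 48 h replicate 1.

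Other genes of the cuticle and the epidermis, the layer that secretes it, differed less as groups. Among 66 tested genes of collagen processing and the cuticlins the median was -0.0141. At an unadjusted p under 0.05, 1 member was higher and 3 were lower (2.21% and 2.02% of all tested genes). nas-11, an astacin protease, had 7.68, 6.75 and 8.91 CPM at 48 h and 4.02, 3.83 and 3.59 CPM at 72 h without overlap, a log2 difference of -1.02 ± 0.27. nas-8 of the same family went the other way, with 0.76 ± 0.29, and nas-9 was lower, at -0.45 ± 0.20. Molting and developmental timing genes had a median of -0.16 over 22, with blmp-1, a zinc finger repressor, at -0.47 ± 0.19. mup-4, which anchors the epidermis to the cuticle, was at 64.6, 79.6 and 62.6 CPM and then 39.2, 52.1 and 32.1 CPM, and it passed with pairing (log2 difference -0.74 ± 0.23, edgeR adjusted p = 0.00894 with pairing). The abu and idp genes of the pharyngeal cuticle had a median of -0.0855 over 42. It was -0.327 over the 15 that passed the filter in the 6 libraries alone, 0.262 without 48 h replicate 3 and -0.314 without 72 h replicate 3.

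**Figure D2:**
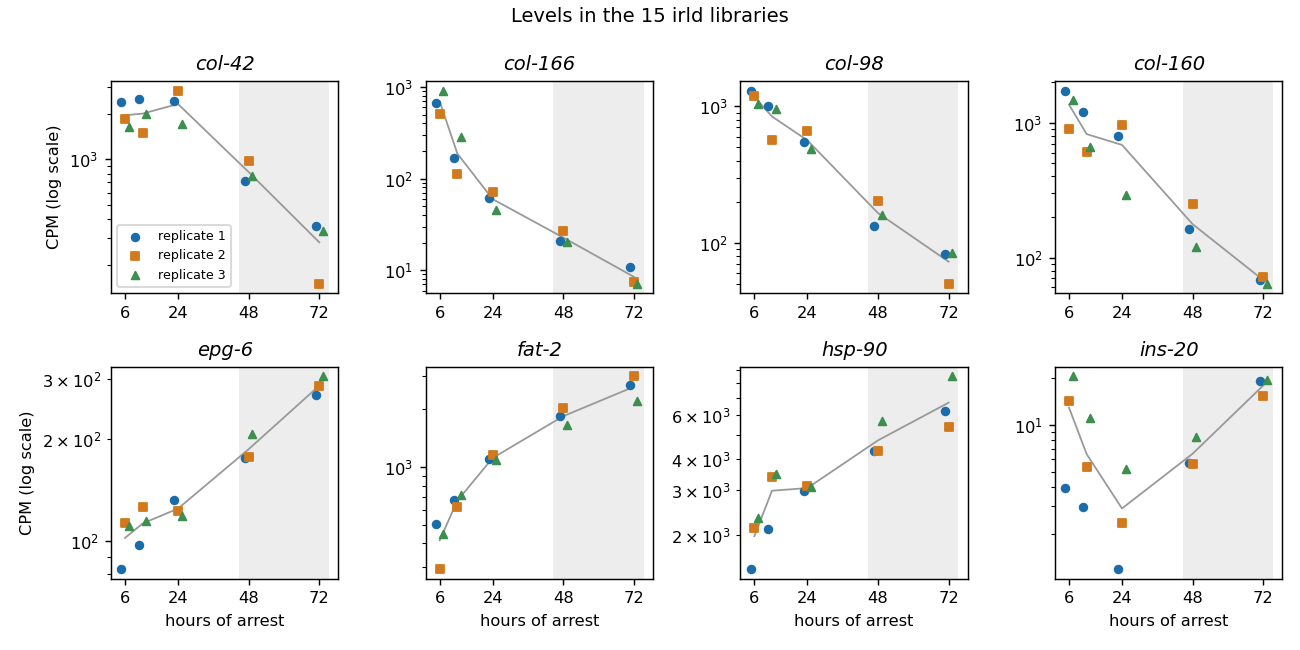
Level in CPM (log axis) against hours of arrest in the 15 irld libraries for 4 collagens and 4 genes with higher levels at 72 h. Points are libraries, shifted slightly sideways by replicate number, grey lines join the means, and the 48 and 72 h groups are shaded. col-42 goes from 718, 974 and 768 CPM at 48 h to 358, 150.1 and 335 CPM at 72 h, and epg-6 from 175, 177 and 207 to 269, 285 and 305 CPM.

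The gene with the smallest p for a higher level was epg-6, a WD-repeat protein of the autophagy pathway, by which cells digest their own contents. epg-6 (WBGene00012641, chromosome III 10596610 to 10600188) had 175, 177 and 207 CPM at 48 h and 269, 285 and 305 CPM at 72 h. All the 72 h libraries lay above all the 48 h libraries, and the difference was 1.54-fold (log2 0.62 ± 0.13, edgeR adjusted p = 0.234). It passed with pairing (edgeR adjusted p = 0.0199) and in DESeq2, and it was among the 63 genes called higher from 24 to 48 h (log2 0.58, edgeR adjusted p = 0.0315). Of 46 autophagy and vacuolar ATPase genes 33 had a positive difference, and the median was 0.0937. At an unadjusted p under 0.05, 3 were higher and 1 was lower (2.21% and 2.02% of all tested genes). lgg-2, an Atg8 homologue on autophagosomes, differed by 0.35 ± 0.14, while epg-3, a membrane protein of autophagosome formation, differed by -0.54 ± 0.21.

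Fatty acid desaturases, which put double bonds into fatty acids, held further high values. fat-2, the delta-12 desaturase (WBGene00001394, chromosome IV 13323873 to 13326395), had 1844, 2029 and 1664 CPM at 48 h and 2694, 2981 and 2215 CPM at 72 h without overlap. Its log2 difference was 0.51 ± 0.16, and it passed with pairing (edgeR adjusted p = 0.0243). fat-6, a stearoyl-CoA desaturase, had 839.6, 789 and 669 CPM at 48 h and 1178, 1190.4 and 1137 CPM at 72 h. The groups stood clear of each other, and with pairing fat-6 passed at an edgeR adjusted p of 0.0144, against an unadjusted p of 0.22 in the fit of all 30 libraries (log2 0.61 ± 0.48). The level of fat-6 was 25.7 ± 18.0 CPM at 6 h and 375 ± 29.6 at 24 h (n = 3 each). These genes did not carry their list: of 19 tested genes of fatty acid synthesis and desaturation 9 were positive and 10 negative, and elo-2, an elongase, was lower, at -0.41 ± 0.22. Fatty acid activation and oxidation had a median of 0.0102 over 59 genes. At an unadjusted p under 0.05, 2 were lower (2.02% of all tested genes), cpt-6 (-0.68 ± 0.26) and acs-12 (-0.35 ± 0.16).

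mfb-1, an F-box protein related to the muscle atrophy factor MAFbx (WBGene00008439, chromosome I 8779731 to 8785415), had 137, 119 and 144 CPM at 48 h and 212, 247 and 199 CPM at 72 h. It was 1.64-fold higher with no overlap (log2 0.72 ± 0.21) and passed with pairing (edgeR adjusted p = 0.0214). Among the other genes with the smallest p for a higher level, 3 act in protein processing, protein degradation or lipid metabolism. ddi-1, a protease that processes the transcription factor SKN-1A, went from 31, 30.4 and 34.6 to 41.1, 43.5 and 43.5 CPM (log2 0.42 ± 0.11). sel-11, the ubiquitin ligase of endoplasmic reticulum degradation, differed by 0.44 ± 0.12, and psd-1, phosphatidylserine decarboxylase, by 0.45 ± 0.12. The rest were gpcp-1 (0.49 ± 0.14), eif-3.I, a translation initiation factor subunit (0.38 ± 0.11), oaz-1, the antizyme of ornithine decarboxylase (0.41 ± 0.12), imb-3, an importin (0.44 ± 0.14), dpy-19, a C-mannosyltransferase (0.60 ± 0.17), and lgc-57, a ligand-gated channel subunit (0.69 ± 0.21). In 11 of these 12 genes the groups did not overlap (5.91% of all tested genes lay wholly above at 72 h), and lgc-57 was the exception. These genes were picked for small p in this comparison, so their separation is a description and no support.

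The remaining lower genes of that rule had other roles. slc-46A, a solute carrier, went from 4.21, 2.80 and 2.53 to 0.908, 1.08 and 1.31 CPM, a log2 difference of -1.52 ± 0.32 at a low level. clec-1, a C-type lectin, had 74.5, 87.5 and 59.6 CPM and then 36.1, 37.5 and 31.8 CPM, and it passed with pairing (log2 -1.07 ± 0.29, edgeR adjusted p = 0.00125 with pairing). dct-6 differed by -0.63 ± 0.16, pgp-3, a P-glycoprotein transporter, by -0.94 ± 0.24, and cfap-36, a cilium-associated protein, by -0.73 ± 0.20. thoc-1 of the THO mRNA export complex differed by -1.06 ± 0.30, and mes-2, the histone H3 lysine 27 methyltransferase of the germline, by -0.59 ± 0.17. All 12 genes had every 72 h library below every 48 h library, as did 4.24% of all tested genes. They too were picked for small p in this comparison, so this separation is a description and no support.

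Cytosolic chaperones, which fold proteins and keep them from clumping, had the highest median of the lists with at least 5 tested members, apart from the adult yolk and oocyte genes. Their median log2 difference was 0.32 over 14 genes, 13 of them positive, and 6 had an unadjusted p under 0.05, all higher (2.21% of all tested genes were higher at that level). Their summed level was 9846, 9854 and 13212 CPM at 48 h and 12288, 11788 and 16393 CPM at 72 h. Within each replicate number the 72 h sum was the higher, and replicate 3 was the highest at both times, so the groups overlapped. hsp-90 had 4285, 4305 and 5640.4 CPM at 48 h and 6209, 5367 and 8531 CPM at 72 h, with the same overlap, and passed with pairing (log2 0.50 ± 0.24, edgeR adjusted p = 0.0407 with pairing). The CCT chaperonin subunits, which fold actin and tubulin, were all positive but unequal. cct-5 differed by 0.34 ± 0.13, cct-4 by 0.34 ± 0.14, cct-2 by 0.35 ± 0.15 and cct-6 by 0.35 ± 0.15, while cct-3 was at 0.301, cct-7 at 0.258, cct-1 at 0.125 and cct-8 at 0.101.

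Heat-inducible genes varied with the replicate number. hsp-70, the inducible cytosolic form, had 5.85, 10.0 and 15.4 CPM at 48 h and 14.3, 20.0 and 42.3 CPM at 72 h. hsp-16.41, a small heat-shock protein, had 3.02, 5.78 and 20.5 CPM at 48 h and 9.08, 24.2 and 40.2 CPM at 72 h. In each gene all 3 same-numbered pairs were higher at 72 h, while 48 h replicate 3 exceeded 72 h replicate 1. Both passed with pairing, hsp-70 at an edgeR adjusted p of 0.00475 and hsp-16.41 at 0.00894. hsp-16.2 had the same pattern at 1.07 ± 0.79 and did not pass (edgeR adjusted p = 0.0706 with pairing). Of 15 small heat-shock genes 9 were negative in the fit of all 30 libraries, and the median was -0.0455. With pairing it was 0.172 over 14, and it was 0.148 in limma-voom and 0.515 without 48 h replicate 3, so the list had no settled direction. Under spike-in scaling it was 0.282, below the 0.299 of all tested genes. The endoplasmic reticulum stress list had a median of 0.0765 over 16 genes, and pdi-3, a disulfide isomerase, differed by 0.29 ± 0.14.

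No insulin pathway component had an unadjusted p under 0.05. The receptor daf-2 had 503, 478 and 408 CPM at 48 h and 498, 486 and 479 CPM at 72 h, and daf-16 had 282, 247 and 272 and then 289, 347 and 267 CPM. Their log2 differences were 0.08 ± 0.21 and 0.17 ± 0.19, and both genes overlapped between the times. Over 13 pathway components the median was 0.0752, and the smallest p belonged to pdk-1, a kinase of the pathway (-0.34 ± 0.18). Of 39 insulin-like peptide genes 23 were tested, with a median of 0.15 that turned negative without replicate 3 (-0.154).

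ins-20 stood out among the peptides. It had 5.67, 5.59 and 8.31 CPM at 48 h and 18.9, 15.2 and 19.4 CPM at 72 h. The groups did not overlap, the difference was 2.74-fold (log2 1.46 ± 0.60), and ins-20 passed with pairing (edgeR adjusted p = 0.00414). It had been at 12.9 ± 8.29 CPM at 6 h and 2.91 ± 2.06 at 24 h (n = 3 each), so its lowest mean of the 5 times was at 24 h. The next smallest p of the peptides was that of ins-17, at 0.26 ± 0.18.

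Genes that DAF-16 activates had a median of -0.143 over 21, with 16 negative, which was 0.0259 without 72 h replicate 1. Genes it represses had a median of -0.141 over 11, which was 0.199 without 48 h replicate 1 and 0.0159 without 72 h replicate 2. Under spike-in scaling these medians were 0.154 and 0.167, both below the 0.299 of all tested genes. sod-3, a mitochondrial superoxide dismutase and a textbook DAF-16 target, had 3.48, 6.75 and 11.1 CPM at 48 h and 3.37, 2.75 and 4.42 CPM at 72 h, which overlap, with a log2 difference of -1.0 ± 0.34. mtl-1, a metallothionein, differed by -0.35 ± 0.32, and hsp-12.6, an alpha-crystallin family chaperone, by 0.29 ± 0.41. dao-6 was the activated gene that passed with pairing, with 129, 196 and 156 CPM at 48 h and 247, 336 and 257 CPM at 72 h (log2 0.80 ± 0.27, edgeR adjusted p = 0.00403 with pairing). dod-17 of the repressed list had under 1 CPM in all 6 libraries and was lower, at -2.03 ± 0.78.

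The receptor L-domain family, to which the mutated genes belong, was expressed at low levels. Of 56 members in the files 19 were tested, 13 of them positive, with a median of 0.31 and none at an unadjusted p under 0.05. All 56 members summed to 71.9, 69.3 and 77.5 CPM at 48 h and 81.9, 92.7 and 64.6 CPM at 72 h, and the groups overlapped. The smallest p were those of irld-50 (0.87 ± 0.46), irld-34 (0.49 ± 0.27) and irld-24 (0.37 ± 0.30).

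Starvation metabolism and defence genes lay on both sides of 0. icl-1, the bifunctional glyoxylate cycle enzyme that lets worms turn fat into sugar, had 13.4, 26.3 and 121 CPM at 48 h and 11, 50.7 and 97 CPM at 72 h, a log2 difference of -0.01 ± 0.79. The spread among its replicates far exceeded any difference between the times. Trehalose and glycerol genes had a median of -0.0715 over 10, with tps-2, a trehalose synthase, at 0.32 ± 0.14 and tre-4, a trehalase, at -0.61 ± 0.28. gpdh-1, a glycerol synthesis enzyme, differed by 1.28 ± 0.44, but that value rests on 72 h replicate 3, at 15.8 CPM against 2.41 to 3.66 CPM in the other 5 libraries, and was -0.09 without replicate 3. Superoxide and peroxide defence genes had a median of -0.0534 over 19, with sod-1 at -0.32 ± 0.14. Cytochrome P450 genes, which oxidise foreign compounds, had a median of -0.246 over 64 (0.0277 under spike-in scaling, against 0.299 over all tested genes). Of these 64, 44 were negative and 1 had an unadjusted p under 0.05. UDP-glycosyltransferases and glutathione S-transferases, which conjugate such compounds, had a median of -0.184 over 99, with 2 higher and 6 lower at that level. Of all tested genes 2.21% were higher and 2.02% lower at that level. gst-4 was lower, at -1.57 ± 0.55, with overlapping groups at 0.478 to 4.33 CPM, and a neighbour is annotated over it on the same strand.

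None of the translation genes was called. Of 80 cytosolic ribosomal protein genes 64 had a positive difference, with a median of 0.0485 and none at an unadjusted p under 0.05. Their summed level, scaled by library size alone, was 162576, 160699.6 and 160985 CPM at 48 h and 160578, 154357 and 159819 CPM at 72 h. Under that scaling the median was also negative, at -0.0372, so these sums and the median of 0.0485 differ in scaling. Translation factors had a median of 0.103 over 41, with eif-3.I and eif-3.G (0.26 ± 0.12) higher at an unadjusted p under 0.05 and 14 negative. Aminoacyl-tRNA synthetases had a median of 0.104 over 31, 8 of them negative. Of the genes encoded in mitochondrial DNA all 12 tested were positive, with a median of 0.175, and ND6 differed by 0.48 ± 0.22. In 2 of the 12 every 72 h library lay above every 48 h library, beside 5.91% of all tested genes. By library size, the 12 genes summed to 16051, 15134 and 14757 CPM at 48 h and 15019, 18846 and 14409 CPM at 72 h. These sums overlapped, and in that scaling only replicate 2 was higher at 72 h.

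**Figure D3:**
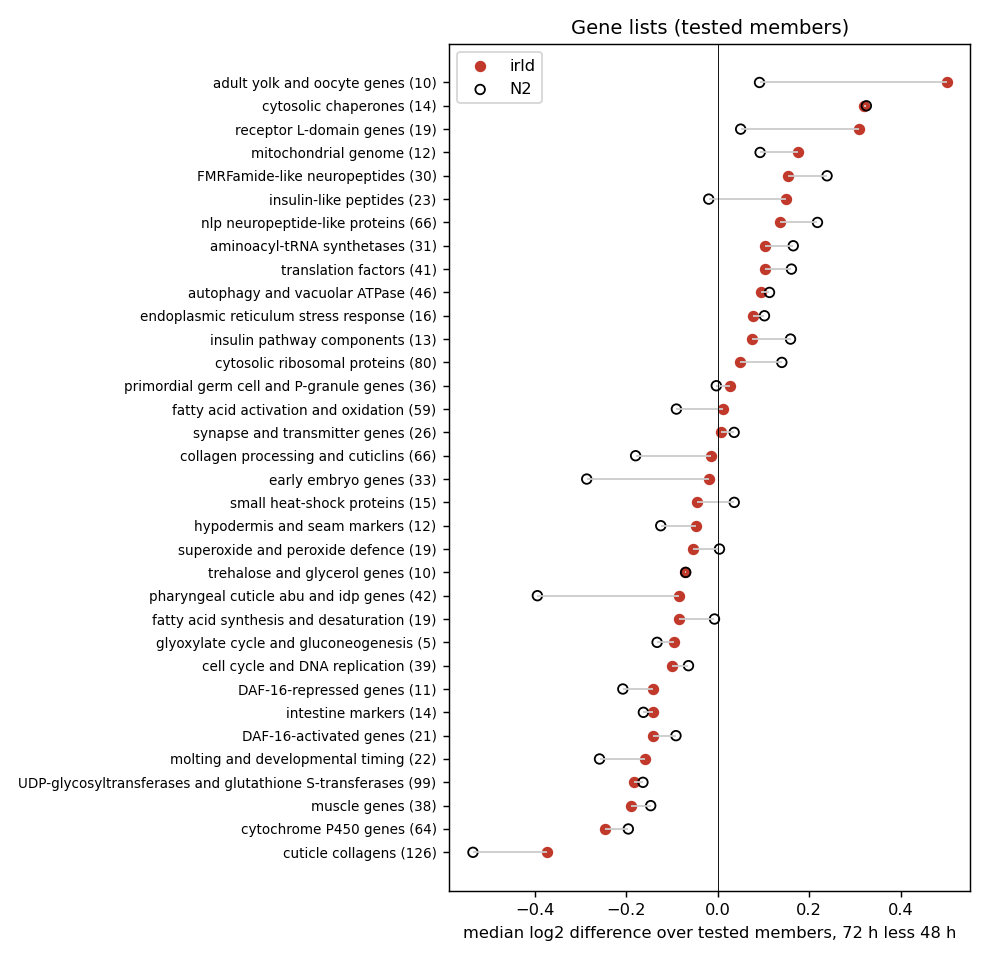
Median log2 difference between 72 and 48 h over the tested members of each gene list (number in brackets) in irld (filled) and N2 (open). Cuticle collagens lie lowest in both strains, at -0.374 and -0.536, and cytosolic chaperones lie at 0.32 and 0.325.

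Tissue markers gave these values. Muscle genes had a median of -0.19, and 35 of 38 were negative. Under spike-in scaling their median was 0.136, below the 0.299 of all tested genes. At an unadjusted p under 0.05, 2 were lower (2.02% of all tested genes), cpn-3, a calponin (-0.55 ± 0.21), and unc-27, a troponin I (-0.40 ± 0.18). Their summed level was 24523, 28251 and 27423 CPM at 48 h and 20711, 19654 and 25545 CPM at 72 h, and 72 h replicate 3 overlapped the 48 h group. atn-1, alpha-actinin, passed with pairing (log2 -0.67 ± 0.36, edgeR adjusted p = 0.038 with pairing). Intestine markers summed to 2251 to 2986 CPM at 48 h and 1972 to 2583 CPM at 72 h. Their median was -0.142 over 14 (0.191 under spike-in scaling, also below 0.299), and the intestinal GATA factor elt-2 differed by -0.54 ± 0.26. ifc-1, an intermediate filament protein outside those lists, went from 235, 239 and 139 to 124, 126 and 92.5 CPM and passed with pairing (edgeR adjusted p = 0.00403).

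Hypodermis and seam markers summed to 1374, 1480.2 and 1473 CPM at 48 h and 1235, 1225 and 1229 CPM at 72 h. Those sums did not overlap. The list's median was -0.0488 over 12 (0.255 under spike-in scaling, against 0.299 over all tested genes), with the GATA factor elt-6 at -0.42 ± 0.20. Its part in the lower collagen levels was not tested. Synapse and transmitter genes had a median of 0.00757 over 26 and overlapping sums, and unc-13, a vesicle priming factor, differed by 0.25 ± 0.16. FMRFamide-like peptides had a median of 0.153 over 30, 23 of them positive, with flp-21 at 0.41 ± 0.23 and flp-16 at 0.33 ± 0.21. The nlp peptides had a median of 0.135 over 66, yet 4 of the 5 members with an unadjusted p under 0.05 were lower (2.02% of all tested genes were lower at that level). Of these, 3 were nlp-27, nlp-28 and nlp-29, which encode antimicrobial peptides of the epidermis. nlp-28 had 35, 35.1 and 34.3 CPM at 48 h and 21, 18.7 and 22.2 CPM at 72 h and passed with pairing (log2 -0.75 ± 0.22, edgeR adjusted p = 0.0243 with pairing).

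Primordial germ cell genes had a median of 0.0259 over 36, with 3 higher and 1 lower at an unadjusted p under 0.05 (2.21% and 2.02% of all tested genes). him-17, a chromatin factor of the germline, differed by 0.32 ± 0.11, car-1, a P-granule protein, by 0.27 ± 0.12, and the lower gene was mes-2. The 72 h libraries lay wholly above in 4 members and wholly below in 4, beside 5.91% and 4.24% of all tested genes. Cell cycle and DNA replication genes had a median of -0.10 over 39, with none at that level. Sperm and adult markers stayed low: sperm genes summed to 3.23 to 7.5 CPM with 11 of 49 at 0 counts, and adult yolk and oocyte genes summed to 20.8 to 43.3 CPM. The adult yolk and oocyte list had a median of 0.501 over 10 with none at an unadjusted p under 0.05, and vit-6, a vitellogenin, had 2.12 to 7.59 CPM at 48 h and 4.06 to 11.2 CPM at 72 h. Early embryo genes, the other list for material besides L1 larvae, stood higher, with sums of 411 to 542 CPM at 48 h and 389 to 436 CPM at 72 h.

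The same interval in N2, which shares no library with the mutant, was used to ask whether the strains differed. Across 11216 genes the log2 differences of the strains had Pearson's r of 0.432 and Spearman's rho of 0.446, a description over genes, which are not independent replicates. The edgeR test called 0 genes in N2 (825 at an unadjusted p under 0.05, 5.32%) and 0 for the difference between the strains (276, 1.78%). DESeq2 called 19 genes in N2 and 0 for the difference between the strains, and limma-voom called 0 in both. All 12 named lower genes were also negative in N2, 9 of them at an unadjusted p under 0.05, and all 12 named higher genes were also positive, 10 of them at that level. col-42 was at -1.34 in N2 and at -1.55 in the mutant, and the difference between these, -0.21, had an unadjusted p of 0.605. epg-6 was at 0.57 and 0.62, and fat-2 at 0.51 in both strains. With pairing, N2 had 606 calls (4.81%), 309 higher (2.45%) and 297 lower (2.36%), and 28 of the mutant's 33 were among them, which is 84.8% of the mutant's calls and 4.62% of those of N2. All 28 had the same sign in both strains.

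**Figure D4:**
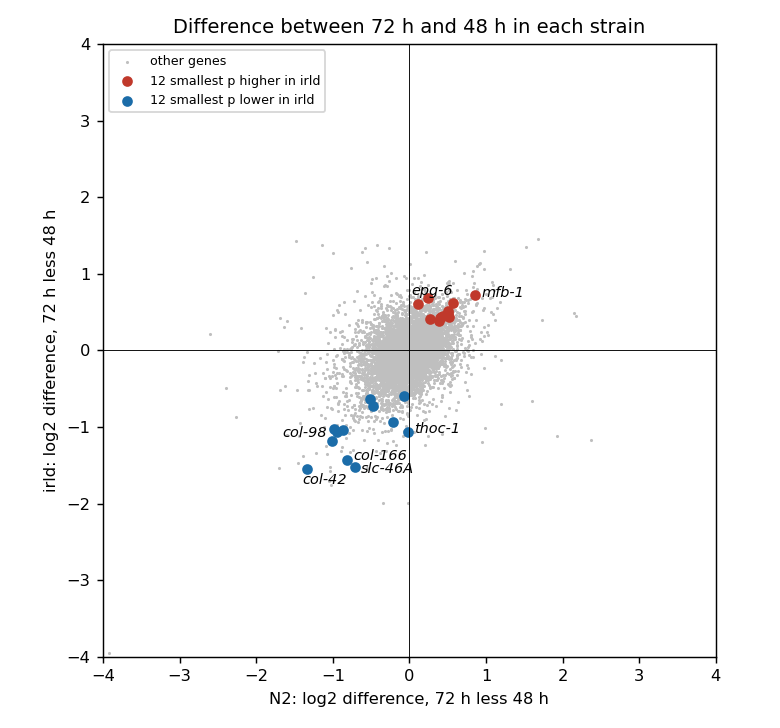
Log2 difference between 72 and 48 h in irld (vertical) against N2 (horizontal) for 11216 genes, with the 12 genes of smallest p in each direction in irld in colour. The blue genes run from -1.55 to -0.59 and the red ones from 0.38 to 0.72 on the vertical axis, and thoc-1 lies at -0.02 on the horizontal one.

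Among the named lower genes, 3 were near 0 or small in N2. thoc-1 was at -0.02 there, with 3.39 ± 0.965 CPM at 48 h and 3.33 ± 1.02 at 72 h (n = 3 each), against 3.63 ± 0.617 and 1.73 ± 0.353 CPM in the mutant. mes-2 was at -0.07 and pgp-3 at -0.21. The strain difference in the change had an unadjusted p of 0.0189 for thoc-1, 0.0357 for mes-2 and 0.0414 for pgp-3, and none passed adjustment. They were picked by the mutant's own values and then for a small value in N2, which favours a difference, so these p describe the genes and support nothing.

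The 8 smallest p for the difference between the strains had an edgeR adjusted p of 1. pqn-72, a protein rich in glutamine and asparagine, differed by 0.29 ± 0.29 in the mutant and by -1.42 in N2, where it went from 4.74 ± 1.56 to 1.78 ± 0.729 CPM (n = 3 each). The chemoreceptor gene sru-40 was at -0.01 and -1.72, the collagen col-69 at 0.18 and -0.97, the nuclear receptor nhr-179 at 0.64 and -0.49, and ints-3 of the Integrator complex at 0.30 and -0.47. The growth factor pvf-1 was at -0.23 and 0.38, the G protein regulator ags-3 at 0.01 and 0.49, and the J-domain protein dnj-25 at -0.21 and 0.45. Among the lists, collagens had a median of -0.536 in N2 and chaperones one of 0.325. Of 61 lists with at least 5 tested members 22 had a positive median in both strains and 22 a negative one.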

How the data were processed

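The deposited counts are raw whole-number read counts per gene, made by the authors; reads were aligned with Bowtie 1.2.2 and counted with HTSeq 0.11.2, and edgeR 3.24.4 was used, per the submitters' processing notes. Whether counting used strand is not given in the sources used here, so genes that overlap or are antisense to each other can share reads. Each of the 30 columns of the count table equalled the sample's own file. Libraries were polyA-selected, and ERCC spike-in was added by total RNA, per the labels' protocols, so that it does not measure RNA per larva.

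Here, edgeR 4.0.16 in R 4.3.3 was run on these counts with TMM scaling (factors 0.781 to 1.24), filterByExpr and robust quasi-likelihood F-tests over all 30 libraries, 1 coefficient per group (20 residual degrees of freedom), with Benjamini-Hochberg adjustment over 15508 genes and a threshold of 0.05. CPM values of single genes are TMM-scaled, ± is an SD for CPM and an SE for log2 differences. Summed levels of lists are scaled by library size alone. The TMM factors of irld replicates 1, 2 and 3 were 0.8619, 0.9096 and 0.938 at 48 h and 0.8269, 0.8538 and 0.8702 at 72 h. The sums therefore stand lower at 72 h, relative to 48 h, than TMM-scaled sums would. Coordinates are from the WBcel235 Ensembl annotation. DESeq2 1.42.0 and limma 3.58.1 were alternatives. The fits were tested on simulated counts. The depth of 8862886 to 12698097 counts per irld library limits low genes most.

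The members, lists and rules were chosen with earlier results of these data known. Restricted to named genes that average at least 2 CPM, the rule takes the 12 smallest p in each direction when none is called and the 8 smallest p of the strain difference. It adds up to 3 members with the smallest p per list described, and always fat-6, icl-1, mtl-1, sod-3, hsp-12.6, daf-2, daf-16 and both mutated genes. Genes that share a symbol with another (74 tested) were left out of the 12 and the 8 smallest p but kept in the lists. They make up 4 of the 15 small heat-shock genes, 4 of the 21 DAF-16-activated genes and 2 of the 11 repressed genes. The collagens col-80 and col-160, cct-1, cct-3, cct-6, cct-7 and cct-8, ifc-1, hsp-70, hsp-90, atn-1, mup-4 and dao-6, where the rule does not name them, were chosen after their values were seen.

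Samples with the same replicate number deviated together: the correlation of their deviations from the group means across genes was 0.52, 0.21 and 0.61 for replicates 1, 2 and 3 in irld and 0.74, 0.44 and 0.43 in N2, all above 0.1. The pairing is read from the data, since the labels do not say what a number marks, and irld 48 h replicate 2 correlated more with 72 h replicate 1 (0.27) than with its own number. Some other pairs of unlike number were above 0.1 too, at 0.16 in irld and at 0.38 and 0.32 in N2, and the rest were negative. The bound of 0.1 therefore does not single out pairs of the same number. Promoter and protein sequences were not analysed here.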

Additional observations from a re-analysis of the deposited data

How the results depend on the processing

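The 0 calls between 48 and 72 h in irld were also 0 under every planned scaling and filter, limma-voom, the 6 libraries alone and the planned replicate block over all 30 libraries, and when any irld library of 48 or 72 h, or any replicate number, was left out. DESeq2 gave 4 (1 higher, 3 lower). Alternatives chosen after seeing the data gave 33 (20 higher, 13 lower) for the 6 libraries with the replicate block, 75 (53 and 22) for the 12 libraries of 48 and 72 h with the block within strain, and 4 (2 and 2) without the 6 and 12 h libraries with that block, which were col-166, col-80, epg-6 and fat-6. For N2 the same 3 fits gave 606, 145 and 9 calls, DESeq2 gave 19, and leaving out replicates gave 0 to 1. The difference between strains had 0 calls in every fit. The cause of these moves was not tested.

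The 99 calls from 24 to 48 h were 3 under spike-in scaling, 55 with no filter, 322 in DESeq2, 0 with the 6 libraries alone, 243 with the replicate block, 486 without the 6 and 12 h libraries with the block within strain, and 0 to 92 when libraries were left out. Of the 34 described lists with at least 5 tested members, 23 had a median of the other sign under at least 1 alternative: 16 under spike-in scaling, 6 by library size alone, 4 with the 6 libraries with or without the block, 8 without 48 h replicate 3 and 7 without replicate 3. Among genes, icl-1 changed sign to 0.01 under upper quartile and spike-in scaling, 0.17 in limma-voom and 0.06, 0.10, 0.11 and 0.15 in the blocked fits, and ranged from -0.79 to 1.41 when libraries were left out. ags-3 was -0.07 by library size alone, -0.02 with the 6 libraries with or without the block and -0.01 with 12, and ranged from -0.06 to 0.10. sru-40 was 0.03 and 0.01 in blocked fits and ranged from -0.42 to 0.29. daf-2 was -0.01 by library size and ranged from -0.02 to 0.14, and gpdh-1 ranged from -0.09 to 1.81. Under spike-in scaling, where the median of all tested genes was 0.299, dnj-25 was 0.26, mtl-1 0.10, pvf-1 0.16 and unc-27 0.06. Motif shares in promoters were not run. Low genes such as irld-39 are limited by depth.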

Other observations

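Replicate 3 of the mutant stood apart at both times, and the genes with the largest such difference were picked here after their values were seen. lin-42, the period homologue that cycles with the molts, had 0.915, 0.675 and 129.6 CPM in replicates 1, 2 and 3 at 48 h and 2.21, 1.56 and 76.0 CPM at 72 h. ech-1.1, a fatty acid oxidation gene, had 1.46, 0.675 and 47.6 CPM at 48 h and 1.17, 2.63 and 43.6 CPM at 72 h. pqn-13 and lron-2 were also highest in replicate 3 at both times. On the other side, the glutathione S-transferase gst-35 had 377, 182 and 36.7 CPM at 48 h and 217, 35.9 and 6.33 CPM at 72 h, and the glycosyltransferase ugt-46 had 665, 136 and 46.8 and then 421, 71.9 and 44.2 CPM. The sphingomyelinases asm-3 and asm-2 were also lowest in replicate 3 at both times.

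By list, the log2 level in replicate 3 less the mean of replicates 1 and 2 had a median of 0.988 at 48 h and 0.399 at 72 h over 34 histone genes, 0.847 and 0.658 over 15 small heat-shock genes, and 0.933 and 0.383 over 33 early embryo genes. The summed level of all 50 early embryo genes, by library size alone, was 465, 411 and 542 CPM in replicates 1, 2 and 3 at 48 h. At 72 h that sum was 423, 436 and 389 CPM, so replicate 3 was then the lowest. DAF-16-activated genes had 0.427 and 0.386 over 21. Cuticle collagens, at 0.0153 and 0.105, stayed near the median of all tested genes, which was 0.0378 and 0.0214. C-type lectins had -0.299 and -0.269 over 107.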
